A study of Rattus norvegicus with 29 samples.

Results

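The subventricular zone (SVZ) was compared with the dentate gyrus (DG) in saline-treated rats, using 3 SVZ and 4 DG ATAC-seq libraries, which are 7 of the 29 libraries of the series. In ATAC-seq a transposase inserts adapters where DNA is not covered by nucleosomes, so the count of an open chromatin region (OCR) measures how accessible it is. Members were taken by the sample titles, and all 98237 OCRs of the deposited table entered the comparison. The study examined open chromatin after a methamphetamine (METH) binge in the SVZ, the DG, the nucleus accumbens (NAc) and Ammon's horn (CA), and the comparison asks how far its neurogenic regions resemble each other and where they differ before any drug.

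All libraries came from adult male Sprague-Dawley rats. The saline rats had 4 intraperitoneal injections of 1 mL/kg, spaced 2 h apart, and the METH rats, used here as a check, had 10 mg/kg on the same schedule. Brains were taken 24 h after the last injection. Per the study's methods, the SVZ and NAc were punched from frozen slices while DG and CA were scooped from the posterior hemisphere, so the way the tissue was taken differed between SVZ and DG and cannot be told apart from the region. Each library held nuclei of all cell types in the piece. In such bulk samples, fewer cells of one type and less accessibility per cell cannot be told apart. The animal numbers in the deposited peak names tie the 3 SVZ libraries to 3 of the 4 DG animals.

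The walls of the lateral ventricles and the subgranular layer of the DG are where neural stem cells go on making neurons in the adult rodent brain. Stem cells of the SVZ mainly yield GABAergic interneurons of the olfactory bulb, while those of the DG yield glutamatergic granule neurons of the hippocampus. The SVZ lies against the striatum, of which the NAc is the ventral part, and the DG lies beside CA within the hippocampus.

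The SVZ libraries held 7550223 to 11406115 counts in OCRs and the DG libraries 9195356 to 12708346. SVZ replicate 3 was the shallowest of the 7 and stood apart. On the first principal component of the 15 saline libraries of the 4 regions, which took 40.6% of the variance, it scored -196, against -81.4 and -91.0 for SVZ replicates 1 and 2, and NAc scored -214 to -105. The DG libraries scored 121 to 142 and CA scored 72.9 to 150. The SVZ and NAc libraries thus lay on one side of 0 and the DG and CA libraries on the other. The main counts, the fold changes of the clusters described and the OCRs called different that are described singly are given with and without SVZ replicate 3. Other OCRs described singly are mostly given from all libraries alone.

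**Figure D1:**
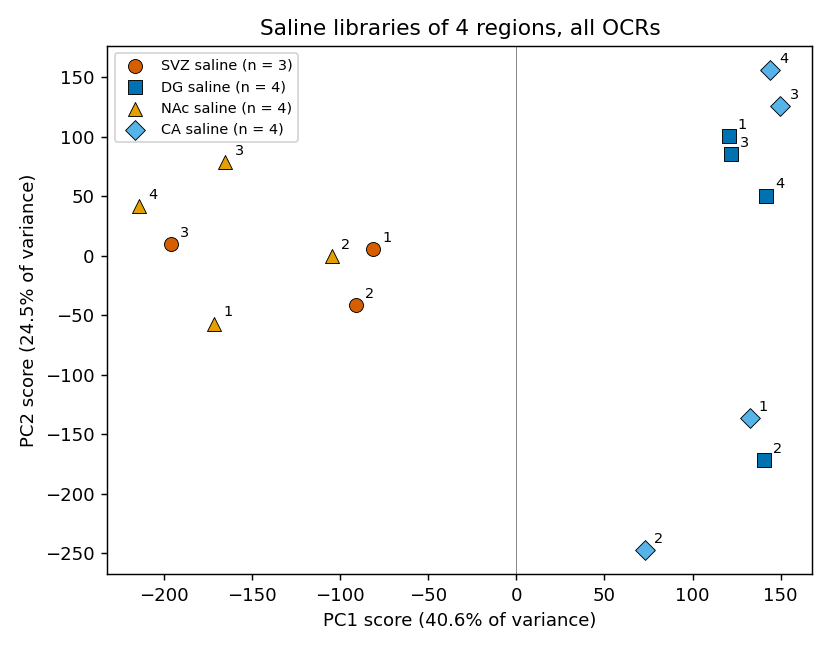
First and second principal component scores of the 15 saline libraries, from log2 CPM of all OCRs, with 1 point per library and its replicate number beside it. The 3 SVZ libraries (scores of -196 to -81.4 on the first component) fall among or beside the NAc libraries, and the 4 DG libraries (121 to 142) fall among the CA libraries.

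Levels are given as CPM, the count of an OCR scaled to a fixed library total and not divided by its width. Region took 41.8% of the variance of log2 CPM among the 7 SVZ and DG libraries. An exact permutation test gave a one-sided p of 0.0286, the smallest it can give. That test treats the libraries as independent, though 3 animals gave both regions. Log2 CPM of SVZ and DG libraries correlated across OCRs with a median r of 0.76 over 12 pairs (0.63 to 0.82). The median was 0.87 within SVZ over 3 pairs and 0.88 within DG over 6 pairs. SVZ correlated with NAc with a median r of 0.88 over 12 pairs and DG with CA with 0.86 over 16 pairs. These coefficients are descriptions, since the OCRs of a library share its depth and base composition. The median for SVZ with DG was the lowest of these 5. That for SVZ with NAc lay just above the one within SVZ, and that for DG with CA lay just below the one within DG. The other pairs of regions had lower medians than SVZ with DG. They were 0.72 for SVZ with CA, 0.71 for DG with NAc and 0.70 for NAc with CA. The median was 0.80 within CA and 0.92 within NAc.

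An OCR was called different when its log2 fold change was above 1 in size with an FDR under 0.01 in edgeR's quasi-likelihood test. Of 98019 OCRs that passed the filter on low counts, 1175 were higher in SVZ (1.2% of those tested) and 1135 were higher in DG (1.16%). At an FDR under 0.05 with no minimum fold, 4081 (4.16%) were higher in SVZ and 4207 (4.29%) were higher in DG. The SVZ and DG libraries did not overlap in any of the 2310 called OCRs, against 9.11% of all OCRs tested that lay higher in every SVZ library and 8.7% that lay higher in every DG library. The median log2 fold change was 2.94 for the OCRs higher in SVZ and -2.53 for those higher in DG, and -0.04 over all OCRs tested.

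The calls depended on which libraries were used. Without SVZ replicate 3 no OCR was called in either direction by edgeR, with 15760 at an unadjusted p under 0.05, while DESeq2 called 783 higher in SVZ and 2093 higher in DG on the same 6 libraries. At an FDR under 0.05 edgeR still found 587 higher in SVZ (0.598% of those tested) and 1023 higher in DG (1.04%) without it, of which 512 and 846 were among the called OCRs. All 1175 and all 1135 called OCRs kept their direction and stayed over 2-fold without it, with medians of 2.43 and -2.48. Their direction could hardly change, since the SVZ and DG libraries did not overlap at any of them. The 6 libraries had also taken part in choosing them. Without SVZ replicate 2 the counts were 253 and 73, and without DG replicate 4 they were 50 and 49. With the animal as a block, which uses the 3 animals that gave both regions, 2752 OCRs were higher in SVZ and 5566 higher in DG, and these held 1172 and 1134 of the called OCRs. With the batch of the library, inferred from a tag in its peak names, as a covariate the counts were 455 and 566. Within batch 2 alone they were 1623 and 2306. That fit set SVZ replicates 2 and 3 against DG replicates 3 and 4, so it still held SVZ replicate 3.

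The direction was the same in each of the 3 animals that gave both tissues, whose libraries took part in choosing these OCRs. The median log2 difference over the OCRs higher in SVZ was 1.80, 1.66 and 3.03 in the pairs that hold SVZ replicates 1, 2 and 3. Over the OCRs higher in DG it was -1.92, -2.01 and -2.53 in the same pairs. The third pair gave the larger difference in both sets.

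Levels of the called OCRs in the other regions followed the neighbours of each niche, which were also the regions dissected in the same way. All 1175 OCRs higher in SVZ had a higher mean level in NAc than in CA, and 1 of the 1135 OCRs higher in DG did, against 49273 of all 98019 OCRs tested. NAc and CA counts were not used in calling these OCRs. Peaks of all regions defined the OCRs of the table, however, and the NAc and CA libraries came from the same rats. The shares above are thus not independent of NAc and CA. Of the OCRs higher in SVZ, 6 had no peak in any SVZ or DG saline library. On the scale of log2(CPM + 0.5), the median difference of SVZ minus NAc was -0.35 over the OCRs higher in SVZ, and that of DG minus CA was 0.41 over the OCRs higher in DG. Within batch 1, 1174 of 1175 and 81 of 1135 had a higher mean in NAc, and within batch 2, 1175 and 0 did.

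Library by library, the median level over the OCRs higher in SVZ was 4.53, 4.68 and 10.3 CPM in SVZ replicates 1 to 3, and it was 0.55 to 1.13 CPM in the DG libraries. In NAc it ran from 5.29 to 10.6 CPM and in CA from 0.62 to 1.02 CPM. SVZ replicate 3 reached the level of the highest NAc libraries, and SVZ replicates 1 and 2 lay below all 4 of them. Over the OCRs higher in DG the medians were 1.37, 1.21 and 1.06 CPM in SVZ, 6.57 to 9.21 CPM in DG, 1.07 to 2.34 CPM in NAc and 2.23 to 10.4 CPM in CA. The part of neighbouring tissue in these levels was not tested.

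**Figure D2:**
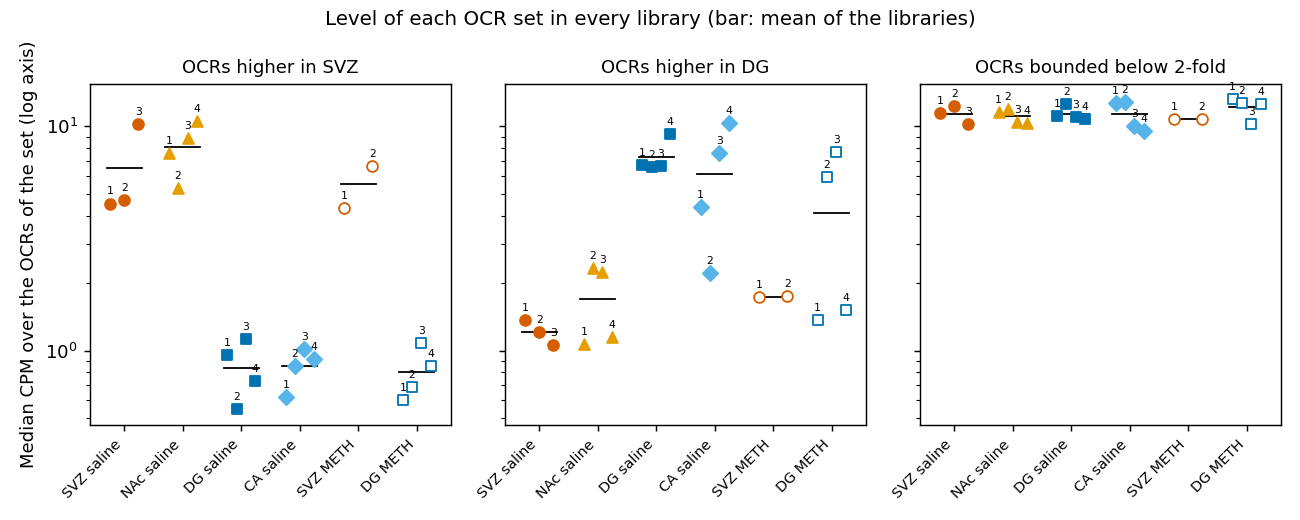
Median CPM (log axis) of each library over the OCRs called higher in SVZ, those called higher in DG and those whose difference was bounded below 2-fold, with 1 point per library, its replicate number above it and a bar at the group mean. The OCRs higher in SVZ are at 4.53 to 10.3 CPM in SVZ and 5.29 to 10.6 CPM in NAc but at 0.55 to 1.13 CPM in DG, and DG METH replicates 1 and 4 lie near the SVZ libraries over the OCRs higher in DG.

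The next comparison asked what SVZ and DG share against NAc and CA. In the fit of the 15 saline libraries, the mean of SVZ and DG was set against that of NAc and CA. No OCR was called higher and none was called lower (0% of 98237 OCRs). A count of 0 does not show that the niches share nothing against NAc and CA. edgeR had 2637 OCRs at an unadjusted p under 0.05, and DESeq2, which also called none, had 3035. The counts stayed at 0 with TMM, with loess offsets, with batch or animal in the model and without any 1 of the 7 SVZ and DG libraries.

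The other ways to pair the 4 regions can be set beside this count. SVZ with NAc against DG with CA gave 8255 higher OCRs (8.4%) and 5209 lower ones (5.3%). The lower count was 2865 without SVZ replicate 3 and 3175 without SVZ replicate 2, and the higher count was 6210 and 7807. SVZ with CA against DG with NAc gave none (0%), with 2138 at an unadjusted p under 0.05. The estimated difference was over 2-fold in 0.374% of OCRs for SVZ with DG against NAc with CA, in 21.7% for SVZ with NAc against DG with CA, and in 0.364% for the third pairing. All 3 contrasts used the same 15 libraries. The split of SVZ and NAc from DG and CA is also the split by how the tissue was taken. The regions and the way of dissection cannot be told apart there. Compared singly in that fit, SVZ against NAc and DG against CA also gave no calls, with 3739 and 877 OCRs at an unadjusted p under 0.05, which does not show that those pairs are alike.

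**Figure D3:**
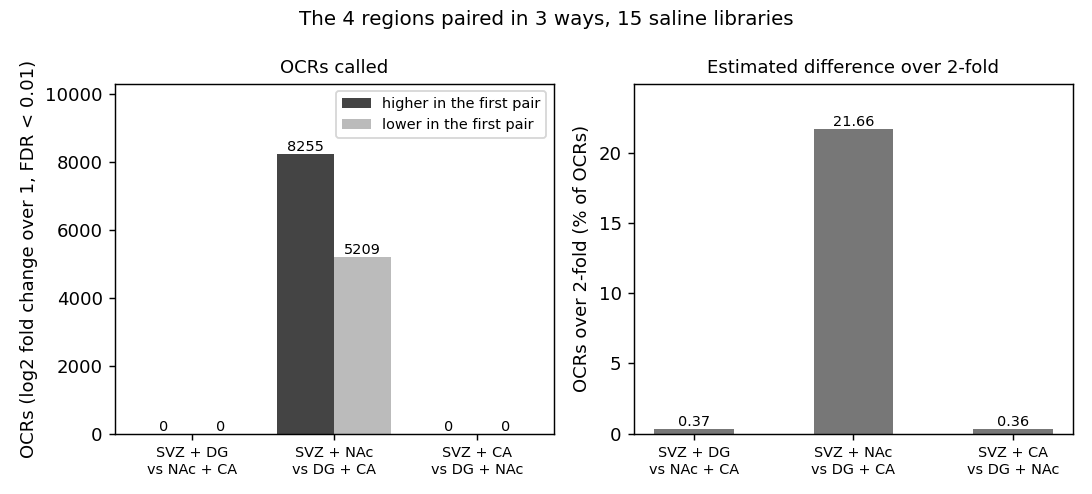
Number of OCRs called (left) and percentage of OCRs with an estimated difference over 2-fold (right) for the 3 ways to split the 4 regions into pairs, from 1 fit of 15 saline libraries. Pairing SVZ with NAc gives 8255 and 5209 calls, and pairing SVZ with DG gives 0 in both directions.

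The 4 OCRs with the lowest p in which both SVZ and DG had higher means than both NAc and CA are given as values, since none passed the test. At chr2:240768848-240769477 (rn6) the SVZ libraries had 5.80, 5.34 and 3.25 CPM and the DG libraries 3.49, 3.50, 6.53 and 4.51 CPM, and the NAc and CA means were 1.39 and 2.49 CPM. Its log2 fold change for the pair of niches was 1.30 ± 0.25 (SE), with an unadjusted p of 6e-05 in edgeR and an adjusted p of 1. At chr1:39047415-39048423 the values were 17.1, 12.4 and 7.58 CPM in SVZ and 7.86, 7.18, 7.05 and 6.95 CPM in DG, with means of 4.41 CPM in NAc and 4.84 CPM in CA. Both niches lay above the other 2 means there, but not past the threshold over all OCRs. The remaining OCRs, at chr1:669396-670177 and chr20:10688571-10689267, had log2 fold changes of 1.22 and 1.40, and an adjusted p of 1 as well.

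The OCRs that SVZ and DG share at like levels were counted from the intervals. The 95% interval of the log2 fold change lay inside ±1, that is inside 2-fold, for 31313 of 98019 OCRs (31.9%), and for 55.9% of the OCRs above the median of mean level. The count was 17830 without SVZ replicate 2, 19913 without SVZ replicate 1 and 22941 without SVZ replicate 3. Such OCRs had a median width of 876 bp, against 665 bp and 761 bp for those called higher in SVZ and DG and 663 bp over all tested. Their median level was 10.3 to 12.3 CPM in every SVZ library and 10.8 to 12.6 CPM in every DG library, a likeness that their choice fixes.

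The 4 bounded OCRs of highest level, which was not scaled for length, lay at chr4:77447556-77448678, chr4:146546697-146548712, chr19:56337629-56339366 and chr7:144013002-144014658. The first had a mean of 1135 ± 277 CPM (SD, n = 3) in SVZ and 1216 ± 345 CPM (SD, n = 4) in DG, with a log2 fold change of -0.10 and a 95% interval of -0.58 to 0.38. The fourth had 328 ± 27.7 CPM in SVZ and 338 ± 50.6 CPM in DG, with an interval of -0.42 to 0.34.

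Peaks, which the authors called in each library on its own, were the second measure. SVZ libraries had 51445, 63592 and 50732 peaks and DG libraries had 78207, 69936, 64678 and 86852, so every SVZ library had fewer (55256 ± 7228 against 74918 ± 9711, SD; two-sided exact permutation p = 0.0571, the smallest that 3 against 4 allows). For peaks with a −log10 q over 5, and for the length that peaks covered, the exact permutation p was 0.114. SVZ replicate 2 exceeded DG replicate 3 on both (56763 against 56543 peaks, and 28.2 against 25.8 Mb). These tests also treat the libraries as independent. A peak was present in all 7 libraries at 24218 OCRs (24.7%), in all 3 SVZ and no DG library at 801 (0.815%), and in all 4 DG and no SVZ library at 3184 (3.24%). Of these, 430 of the 801 were called higher in SVZ and 781 of the 3184 were called higher in DG. These patterns held at 1222 and 3574 OCRs without SVZ replicate 3. Presence of a peak moves with the number of peaks in each library, and every SVZ library had fewer. Depth was not adjusted for in these peak counts. The larger number of OCRs with peaks in DG alone thus does not by itself show a difference between regions. By read counts, 1175 OCRs were called higher in SVZ and 1135 higher in DG. No OCR had a peak in all 7 SVZ and DG libraries and in none of the 8 NAc and CA libraries. A median of 70.0% of SVZ peaks overlapped a peak of a DG library, 61.0% one of another SVZ library, 79.6% one of an NAc library and 73.3% one of a CA library. For DG peaks the medians were 51.5% in SVZ, 66.1% in another DG library, 63.1% in NAc and 71.8% in CA. These shares move with the number of peaks in each list, and SVZ peaks overlapped those of the other SVZ libraries least, so they do not rank the regions by likeness.

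The OCRs with the largest differences were nearly closed in the other region. At chr16:66501931-66502558 the SVZ libraries had 3.54, 5.26 and 17.4 CPM and the DG libraries 0.097, 0, 0.415 and 0.148 CPM. The log2 fold change was 5.67 ± 0.75 (SE; edgeR, adjusted p = 0.00158), and the NAc and CA means were 13.3 and 0.314 CPM. SVZ replicate 3 was the highest SVZ library there, and leaving it out gave a log2 fold change of 4.68 (adjusted p = 0.0256). At chr1:151555286-151556012 the values were 4.62, 5.17 and 13.2 CPM in SVZ and 0.097, 0.184, 0.104 and 0.222 CPM in DG, with a log2 fold change of 5.51 ± 0.59 (adjusted p = 0.00115). At chr6:86270837-86271526 they were 6.12, 5.61 and 16.5 CPM against 0.194, 0, 0.207 and 0.370 CPM. The third SVZ library was the highest in each of these, and without it their log2 fold changes were 4.87 and 4.80 (adjusted p of 0.0166 and 0.0196).

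In 4 of the 8 SVZ-higher OCRs chosen by size the DG libraries held 1 or 2 reads in all. The OCR at chr17:74716301-74716747 had 97 reads in SVZ and 2 in DG, a ratio after scaling of 74.0 with a 95% counting interval of 20.0 to 620. Those at chr6:130287903-130288266, chrX:31670832-31671488 and chr5:91767144-91767533 had ratios of 73.3 (19.7 to 614), 68.7 (18.5 to 576) and 73.3 (12.5 to 2954). The intervals are exact and cover counting error only. The eighth OCR, at chr2:169064179-169064612, had 3.44, 3.50 and 8.30 CPM in SVZ and at most 0.207 CPM in a DG library. Without SVZ replicate 3 the log2 fold changes of these 5 were 4.98 to 5.38, with adjusted p of 0.021 to 0.0349 in edgeR. With the animal block the OCR at chr5:91767144-91767533 was no longer called (adjusted p = 0.0129). With loess offsets none of these 5 was called. The 4 with 1 or 2 DG reads then had log2 fold changes of 1.39 to 2.45 (edgeR, adjusted p of 0.12 to 0.768). The OCR at chr2:169064179-169064612 had 2.94 (adjusted p = 0.0156). The SVZ-higher OCRs described before these stayed called, at 3.53 to 3.82. In METH rats the log2 fold changes of the 8 OCRs ran from 2.78 to 5.04, smaller than in saline at each of the 8.

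The 8 OCRs with the largest differences the other way were more even over the DG libraries or split between them. At chr13:67100424-67101082 the DG libraries had 7.57, 9.48, 20.4 and 20.9 CPM and the SVZ libraries 0.215, 0.788 and 0.722 CPM, with a log2 fold change of -4.62 ± 0.55 (SE; edgeR, adjusted p = 0.00115) and means of 15.6 CPM in CA and 1.17 CPM in NAc. At chr2:228306657-228307560 they were 7.08, 6.35, 5.29 and 14.4 CPM against 0.215, 0.0876 and 0.601 CPM. At chr8:16889607-16890311 DG replicates 2 and 4 had 12.5 and 11.3 CPM but replicates 1 and 3 had 1.07 and 2.59 CPM. The groups did not overlap at any of them, yet DG was not uniform at the last.

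The SVZ libraries held 1 to 3 reads at the other 5. The OCR at chr7:109495836-109496318 had 120 reads in DG and 1 in SVZ, a ratio of 78.6 (13.8 to 3130), and its DG libraries lay close together at 2.52, 2.67, 2.59 and 2.96 CPM. The ratio was 62.6 (17.1 to 520) at chr4:40625694-40626319, 34.7 (11.7 to 170) at chr5:12921142-12921570, 34.5 (11.6 to 169) at chr14:88326678-88327168 and 24.9 (8.30 to 122) at chr6:45795576-45795914. Without SVZ replicate 3 the log2 fold changes of the 8 ran from -5.73 to -4.49, with adjusted p of 0.0166 to 0.0444 in edgeR. In METH rats they ran from -2.77 to -0.25, nearer to 0 than in saline at each of the 8. The 8 OCRs higher in SVZ also moved nearer to 0, and both sets were chosen for their size in saline.

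Called OCRs in the same direction that lay within 50 kb of each other were joined into clusters, a description chosen after the calls were seen. Of the OCRs higher in SVZ, 183 (15.6%) fell in 81 clusters of 2 or more, and of those higher in DG, 171 (15.1%) fell in 80. OCRs themselves lie close together, with a median distance to the nearest OCR of 5530.5 bp over all tested. Whether these shares exceed what that density gives was not tested. The largest spanned chr4:32365152-32392663, where 8 of 9 OCRs were called higher in SVZ and the remaining one had the same sign. Over the 8, the mean was 11.5, 8.08 and 10.5 CPM in the SVZ libraries and 2.84, 1.89, 2.33 and 2.07 CPM in the DG libraries. SVZ replicate 3 lay between the other SVZ libraries at this cluster, and the median log2 fold change was 2.10 with and 2.10 without SVZ replicate 3, and 1.96 in METH rats.

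Further clusters were less even. At chr17:89170832-89254507, 5 OCRs had 12.1, 10.97 and 15.5 CPM in SVZ and 2.32 to 2.90 CPM in DG. At chr1:52605776-52675832, 4 OCRs had 4.70, 6.07 and 19.7 CPM in SVZ, and SVZ replicate 3 stood above the others. The largest cluster higher in DG, at chr12:52134813-52208302, held 4 called OCRs. They had 9.12, 6.17, 8.76 and 13.1 CPM in DG and 2.42, 1.42 and 1.86 CPM in SVZ. The median log2 fold changes of these clusters were 2.48, 3.33 and -2.28 with SVZ replicate 3, and 2.18, 2.40 and -2.32 without it.

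Genes could be named only where the study ties an OCR to one. Its list of OCRs whose human counterpart holds a variant from genome-wide association studies (GWAS) of neuronal traits has 814 OCRs, all of which were in the count table. Of these, 8 (0.983%) were called higher in SVZ and 6 (0.737%) higher in DG, against 1.2% and 1.16% of all OCRs, and 29 (3.56%) and 27 (3.32%) passed an FDR of 0.05, against 4.16% and 4.29%. Their median log2 fold change was -0.06, and 374 (45.9%) were bounded below 2-fold, against 31.9% of all and 55.9% of those above the median level. The listed OCRs had a higher median level than all OCRs tested, 6.92 against 4.43 CPM, and a larger median width, 798 against 663 bp. All 29 that were higher in SVZ had a higher mean in NAc than in CA, and none of the 27 that were higher in DG did. Among all OCRs at that FDR, 4070 of 4081 and 52 of 4207 did. Without SVZ replicate 3, 10 of the 814 passed an FDR of 0.05. Of all 98086 OCRs tested then, 587 higher in SVZ and 1023 higher in DG passed it. The genes below are those to which the human variant is mapped and were picked after the values were seen.

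The first named are OCRs called higher in SVZ. The OCR of PRKD1, a serine/threonine kinase of the protein kinase D family, at chr6:71608008-71608843, had 2.79, 2.98 and 12.0 CPM in SVZ and 0.485, 0.828, 0.726 and 0.666 CPM in DG (log2 fold change 3.10 ± 0.57, SE; edgeR, adjusted p = 0.0052). The OCR beside PDE4B, a phosphodiesterase that breaks down cAMP, at chr5:121546809-121547490, had 3.01, 5.08 and 6.86 CPM in SVZ and 0.296 to 0.933 CPM in DG (3.02 ± 0.56, adjusted p = 0.00514). SVZ replicate 3 was the highest at both, and no SVZ value overlapped a DG value.

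Others passed an FDR of 0.05 and not of 0.01. ADCY5 encodes the adenylyl cyclase that is abundant in striatal neurons, and its OCR at chr11:68778236-68778767 had 6.87, 6.22 and 16.6 CPM in SVZ and 2.04, 0.921, 4.36 and 1.33 CPM in DG (log2 fold change 2.20 ± 0.50; edgeR, adjusted p = 0.0147). A second OCR of ADCY5, at chr11:68832353-68833557, overlapped between regions with a log2 fold change of 0.28 (95% interval -0.52 to 1.08). CDH8, a cadherin of synapses, had 3.33, 3.50 and 9.62 CPM in SVZ and 0 to 1.07 CPM in DG at chr19:6354849-6355507 (3.33 ± 0.71; adjusted p = 0.0101), and the NAc and CA means were 8.65 and 0.337 CPM.

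Of the OCRs called higher in DG, those of FBN1 and CLSTN2 are described. The OCR of FBN1, which encodes the matrix protein fibrillin, at chr3:117723026-117723963, had 6.60, 4.79, 9.44 and 6.51 CPM in DG and 1.504, 1.31 and 1.08 CPM in SVZ (log2 fold change -2.38 ± 0.41, SE; edgeR, adjusted p = 0.00391). The OCR of CLSTN2, a calsyntenin of the postsynaptic membrane, at chr8:105943621-105944350, had 3.78, 4.33, 3.32 and 6.80 CPM in DG and 0.859, 1.23 and 0.481 CPM in SVZ (-2.38 ± 0.49, adjusted p = 0.00912). FBN1 still passed an FDR of 0.05 without SVZ replicate 3 (adjusted p = 0.0364), and CLSTN2 did not (0.0598).

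The OCRs of GRM8, BDNF and HDAC9 were higher in DG at an FDR under 0.05. GRM8, a presynaptic metabotropic glutamate receptor, had 12.3, 14.2, 8.19 and 12.9 CPM in DG and 4.62, 3.24 and 5.17 CPM in SVZ at chr4:54936325-54937190 (log2 fold change -1.46 ± 0.33; edgeR, adjusted p = 0.0146). BDNF, the brain-derived neurotrophic factor, had 5.63, 1.75, 5.599 and 6.80 CPM in DG and 0.537, 1.58 and 1.56 CPM in SVZ at chr3:100786684-100787041 (-2.00 ± 0.54; adjusted p = 0.0312). DG replicate 2 came close to the SVZ libraries at BDNF. HDAC9, a histone deacetylase, had 0.970, 6.26, 2.80 and 5.69 CPM in DG and 0.263 to 0.481 CPM in SVZ at chr6:53505108-53505583 (-3.32 ± 0.72; adjusted p = 0.0107).

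GABRB1, a subunit of the GABA-A receptor, had OCRs of opposite sign. Its OCR at chr14:38804098-38805271 had 14.7, 15.5, 17.5 and 12.8 CPM in DG and 6.77, 5.43 and 6.50 CPM in SVZ (log2 fold change -1.28 ± 0.29; edgeR, adjusted p = 0.0132). Another at chr14:38814789-38815751 had 27.4, 20.6 and 21.3 CPM in SVZ and 19.2, 7.46, 11.8 and 8.36 CPM in DG (0.98 ± 0.32; adjusted p = 0.0705), which did not pass the test. With the animal block the first was called (-1.27, adjusted p = 0.000882) and the second passed an FDR of 0.05 (0.88, adjusted p = 0.00507). The first had a log2 fold change of 0.12 in METH rats.

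Without SVZ replicate 3, the OCRs of PRKD1, PDE4B, ADCY5, CDH8, GRM8, BDNF, HDAC9 and GABRB1 that had passed the test kept their direction, and none of them passed an FDR of 0.05 in edgeR (adjusted p of 0.0529 to 0.142). With the animal block, by contrast, ADCY5, CDH8, GRM8, BDNF and HDAC9 were called as well (adjusted p of 0.000535 to 0.00859), and the second OCR of ADCY5 passed an FDR of 0.05 (log2 fold change 0.61, adjusted p = 0.00417).

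Many gene-linked OCRs were bounded below 2-fold. At KLF9, a transcription factor of mature neurons, chr1:240907814-240909060 had 86.5 ± 13.6 CPM (SD, n = 3) in SVZ and 109 ± 27.5 CPM (SD, n = 4) in DG, with a 95% interval of -0.80 to 0.14. At ERBB4, a neuregulin receptor, chr9:76176968-76180011 had 54.2 ± 8.77 and 48.8 ± 19.6 CPM, with an interval of -0.41 to 0.72. PTCH1, the receptor of Sonic hedgehog, had 4 OCRs, all bounded, with log2 fold changes of 0.27, 0.11, -0.10 and -0.20. Hedgehog signalling is known to act on the stem cells of both niches.

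**Figure D4:**
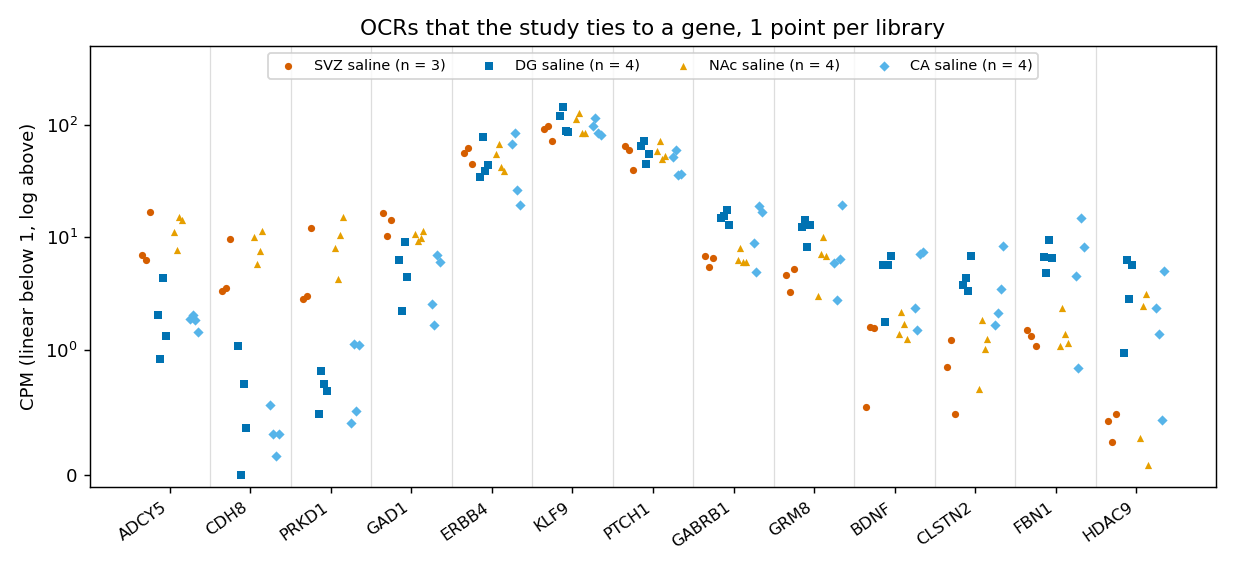
CPM of single OCRs that the study ties to a gene, in each saline library of the 4 regions (axis linear below 1 and logarithmic above), with the OCR of lowest FDR for each gene, or of highest level for ERBB4, KLF9 and PTCH1. SVZ and NAc points lie together above DG and CA for ADCY5, CDH8 and PRKD1, the regions overlap for ERBB4, KLF9 and PTCH1, and DG lies above SVZ for FBN1, CLSTN2 and GRM8.

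Of 103 markers in 10 lists of neural cell types, 5 had an OCR tied to them, and 6 lists had none: transit amplifying and dividing cells, neuroblasts, ependymal cells, choroid plexus, microglia and endothelium. The labelled tissues could therefore be checked against few markers. GAD1, which makes GABA, had 16.4, 10.2 and 14.3 CPM in SVZ and 6.31, 2.21, 9.12 and 4.44 CPM in DG at chr3:56861146-56862109 (log2 fold change 1.31 ± 0.40; edgeR, adjusted p = 0.0538), with means of 10.3 CPM in NAc and 4.29 CPM in CA. The OCRs of GFAP of astrocytes and stem cells, of TBR1 and ZBTB20 of hippocampal excitatory neurons and of ST18 of oligodendrocytes had log2 fold changes of -0.27, -0.36, 0.34 and 0.46, with adjusted p of 0.842, 0.657, 0.778 and 0.681. None of the 5 passed the test, and none was bounded below 2-fold. With the animal block GAD1 passed an FDR of 0.05 (log2 fold change 1.07, adjusted p = 0.0122) and the others did not (adjusted p of 0.202 to 0.506).

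The study also describes 5 loci chosen for their response to METH. Apart from Gabrb1, given above, their log2 fold changes were -0.56 at the St18 promoter (chr5:12563213-12564343), -0.94 in an intron of Sdk2 (chr10:102306830-102307559), -0.77 at Neto1 (chr18:83486473-83487024) and -0.39 at Tiam2 (chr1:44418133-44419600), with adjusted p of 0.655, 0.186, 0.458 and 0.439 in edgeR. At St18 the SVZ libraries had 14.9, 4.73 and 5.05 CPM and the DG libraries 14.6, 3.77, 20.4 and 9.98 CPM. The regions overlapped there. With the animal block, St18 and Sdk2 passed an FDR of 0.05, with log2 fold changes of -0.99 (adjusted p = 0.0395) and -1.16 (adjusted p = 0.0182), and Neto1 and Tiam2 did not (adjusted p of 0.117 and 0.15). At Sdk2 the SVZ library was below the DG library in each of the 3 animals, with 5.26 against 7.95, 2.10 against 6.43 and 2.53 against 6.51 CPM. At Neto1 the log2 fold change was -1.80 without SVZ replicate 3 (adjusted p = 0.0666).

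The METH rats gave separate libraries, 2 from SVZ and 4 from DG, in which the direction of the called OCRs could be looked at. They are treated and so are not saline replicates, and SVZ METH replicate 2 carries an extra tag in its peak names that no source used here explains. Of the called OCRs tested there, 1172 of 1172 higher in SVZ and 1116 of 1134 higher in DG had the same sign, against 70.0% of all OCRs. The median log2 fold change was 2.72 for the first set and -1.19 for the second. No OCR was called in METH rats by edgeR (0% of 97971), with 16275 at an unadjusted p under 0.05, and DESeq2 called 1617 higher in SVZ and 26 higher in DG.

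**Figure D5:**
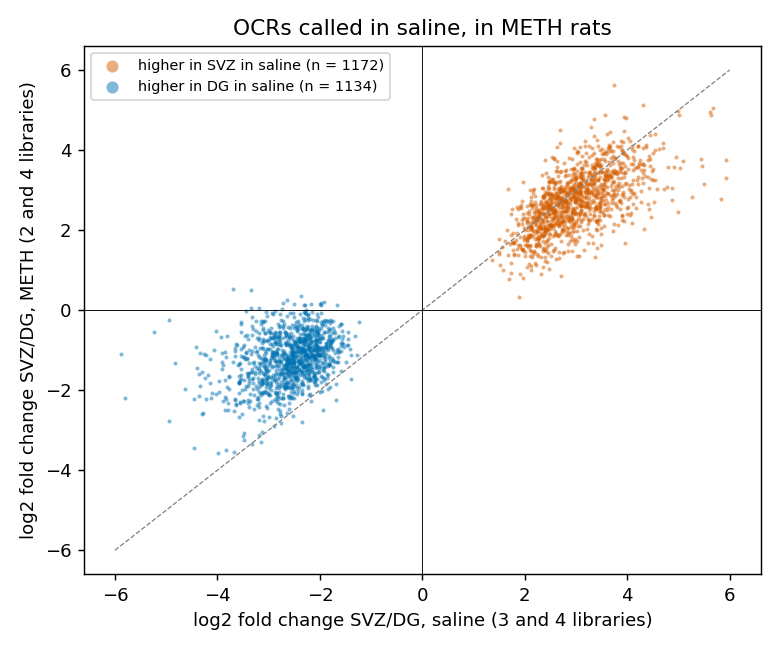
Log2 fold change of SVZ over DG in saline rats (horizontal) and in METH rats (vertical) for the OCRs called in saline, with 1 point per OCR and a dashed line of equal values. The 1172 OCRs higher in SVZ lie near the line, with a median of 2.72 in METH rats, and the 1134 higher in DG lie nearer to 0, with a median of -1.19.

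The lower values in DG came with a split of the DG METH libraries. Over the OCRs higher in DG their medians were 1.37, 5.93, 7.67 and 1.52 CPM in replicates 1 to 4, and the SVZ METH libraries were at 1.73 and 1.75 CPM. DG METH replicates 1 and 4 thus lay below the SVZ METH libraries over OCRs that all 4 saline DG libraries held at 6.57 CPM or more. Over the OCRs higher in SVZ the DG METH libraries were at 0.60 to 1.08 CPM. The difference between the saline and METH contrasts was tested as an interaction and no OCR passed (edgeR, lowest FDR 0.922, with 3104 at an unadjusted p under 0.05; DESeq2 also called 0). All 4 DG METH libraries had the same treatment, and the cause of the split among them was not tested. Whether treatment or the libraries gave the smaller difference in METH rats cannot be told apart.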

How the data were processed

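ATAC-seq was done by the omni-ATAC protocol on frozen tissue, and the authors processed the reads with the AIAP package on rn6, called peaks in each library and merged them into consensus OCRs. Raw counts per OCR were deposited for every library, with per-library peak lists in which the authors' peak caller gave a fold enrichment and −log10 p and q-values. Batch and animal were inferred from library tags in the deposited peak names, and the paper states batches for its RNA-seq only. By these tags, the libraries of a group came from different rats.

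Counts were scaled by upper quartile, filtered with filterByExpr and tested with edgeR 4.0.16 (robust quasi-likelihood fit, R 4.3.3) on the 7 libraries with no covariate, with Benjamini-Hochberg adjustment. The 4 regions were tested in 1 fit of 15 saline libraries. DESeq2 1.42.0, loess offsets, TMM, 1 RUVr factor, batch, animal and replicate blocks, and leaving out each library were alternatives. The scripts were tested on simulated data. Peaks were intersected with bedtools 2.31.1 (at least 1 bp). Depth was 7550223 to 12708346 counts, and intervals on ratios (95%, exact) cover counting error only.

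Named OCRs were the 8 called OCRs of largest fold in each direction whose libraries did not overlap, the 4 bounded OCRs of highest level and the 4 with both niches over NAc and CA. Same-numbered libraries of SVZ and DG deviated together with r of 0.35, 0.23 and 0.06 and those of the same animal with 0.35, -0.09 and 0.32, the animal coming from the peak names. Members and lists were chosen with earlier results of these data known. No annotation of rn6 was used here, so genes are those the study ties to an OCR, and no sequence was printed. One gene-linked OCR is not reported here.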

Additional observations from a re-analysis of the deposited data

Results flagged for a closer look

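Of 48 groups of 4 libraries examined, 4 had a library far from the other 3 by Dixon's criterion. Chance gives that in about 1 of 20 groups of normally distributed values, a rate that does not apply to OCRs with counts at or near 0. The median level over the OCRs higher in DG was 9.21 CPM in DG replicate 4 and 6.57 to 6.75 CPM in the other DG libraries. At chr17:74716301-74716747 and at chrX:31670832-31671488, 1 DG library had 0.207 CPM and the others had 0, and at chr5:91767144-91767533, 1 had 0.104 CPM and the others had 0, which are 1 or 2 reads. With 3 values at 0 the criterion is met whatever the remaining value is, so the flags at these OCRs say nothing about a library.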

How the results depend on the processing

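The counts of OCRs higher in SVZ and in DG, 1175 and 1135, moved by over 1.5 times under 9 and 14 settings. They stayed within that under 9 and 4. Of the called OCRs, 1175 of 1175 and at least 1131 of 1135 were fitted with the same sign under each alternative fit compared OCR by OCR. Those OCRs were chosen from the same libraries and the regions did not overlap at them, so their signs could hardly change. The counts were 3868 and 3652 with DESeq2, 3029 and 2645 with 1 RUVr factor, 2752 and 5566 with the animal block, 455 and 566 with batch as a covariate, and 4081 and 4207 at an FDR under 0.05 with no minimum fold. TMM gave 786 and 736, loess offsets 550 and 972, the fit of 15 libraries 1640 and 354, batch 2 alone 1623 and 2306, and no filter 1168 and 1163. Leaving out 1 library gave 0 to 1276 OCRs higher in SVZ and 0 to 2166 higher in DG, with 0 and 0 without SVZ replicate 3. The cause was not tested.

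With the replicate number as a replicate block the counts were 1007 and 854. The numbers come from the same animal only for replicate 1, so they share only a number otherwise.

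The region's share of variance ran from 38.5 to 51.1% when 1 library was left out, with exact permutation p of 0.0667 or 0.1, the smallest those designs allow. Bounded OCRs ran from 17830 to 28750. The share of called OCRs with the same sign in METH rats, 99.2%, ran from 94.5 to 99.9% when 1 METH library was left out, an alternative added after seeing the data. It was 98.7% for the OCRs at an FDR under 0.05 without SVZ replicate 3, also added, because none was called there, which left no value at the stricter call. The counts of OCRs called higher or lower in both niches than in NAc and CA stayed at 0. Of 253 values of named OCRs under alternatives, 196 kept direction and call, 57 kept direction only and 0 reversed. These OCRs were chosen from the same libraries for large differences without overlap, so a reversal was hardly possible.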
